A study of Mus musculus with 6 samples.

Results

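The cardiac myosin genes described here are 10 of the 30323 gene IDs in the count table: the heavy chain genes Myh6, Myh7 and Myh7b, the light chain genes Myl2, Myl3, Myl4 and Myl7, the light chain kinase gene Mylk3, the myosin-binding protein gene Mybpc3 and Smyd1, a muscle methyltransferase gene. They were chosen by symbol, each matched 1 Ensembl ID, and all 10 passed the filter on low counts. Whole hearts of mouse embryos at day 9.5 were sequenced for RNA, in 3 libraries with a myocardial Cdc42 knockout (MCKO, genotype label CDC-42 KO) and 3 control libraries (genotype label C57BL/6 ctrl). The sources used here do not give the Cre driver, the deleted exon, the alleles carried by controls or the number of litters, which limits what the groups can be said to model. Cdc42 is a small GTPase that organises actin and cell polarity. The comparison asks how heart RNA differs between hearts labelled as Cdc42 knockout and control hearts.

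Myosin is the motor of the thick filament. In each molecule a pair of heavy chains carries the ATPase heads and the rod, and each head binds an essential and a regulatory light chain. In the mouse heart the faster alpha heavy chain comes from Myh6 and the slower beta heavy chain from Myh7. Beta predominates in the fetal ventricle and alpha takes over after birth. Light chain genes are named for the chamber in which the adult heart uses them, but the early heart tube expresses atrial and ventricular forms together.

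Libraries held 23883877 to 34246477 estimated counts in MCKO hearts and 19256840 to 32169289 in control hearts. Levels are given as TMM-scaled CPM, counts scaled to library size with edgeR's normalization between libraries. Cdc42 had 253, 245 and 245 TMM-scaled CPM in MCKO hearts, against 390.1, 371 and 413 in control hearts. No MCKO library reached a control library, and the log2 difference was -0.66 (SE 0.047, edgeR adjusted p = 2.93e-06). Whole hearts also hold cells that are not myocardium, whose Cdc42 reads are part of these values. How completely the muscle itself lost Cdc42 was not tested. Markers of heart muscle were present in every library, with 13 cardiomyocyte markers summing to 27772.5 to 28217 TMM-scaled CPM in MCKO hearts and 23983 to 25286 in control hearts. Among 10 skeletal muscle markers Myod1 was at 0 in all 6 libraries, and Myog, Myf5, Myf6 and Chrnd reached at most 3 counts in a library. Other skeletal muscle markers were present at low levels, and the 10 summed to 36.8 to 41.5 TMM-scaled CPM in MCKO hearts and 38.1 to 40.8 in control hearts. Of the 4 that were tested, Tnni2 and Ckm rose, Tnnt3 was not called, and Actn3 fell to 1.49 to 1.93 TMM-scaled CPM in MCKO hearts, against 8.76 to 9.68 in control hearts. The part of skeletal muscle cells in the results that follow was not tested.

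Of the 10 cardiac myosin genes, Myh7, Myh7b, Myl3 and Myl7 rose in MCKO hearts, Myl2 and Smyd1 fell, and Myh6, Myl4, Mylk3 and Mybpc3 were not called. A call is an adjusted p under 0.05 by edgeR's quasi-likelihood test over 14697 genes. Across all tested genes 29.3% were called higher, 29.1% lower and 58.4% in either direction, so 4 higher and 2 lower of 10 is close to the background of these hearts. The median log2 fold change of the 10 genes was 0.08, against 0.00057 over all tested genes. For 6 of the 10 no MCKO library overlapped a control library, against 64.7% of all tested genes. In whole hearts, fewer cells of a type and less RNA per cell cannot be told apart.

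**Figure D1:**
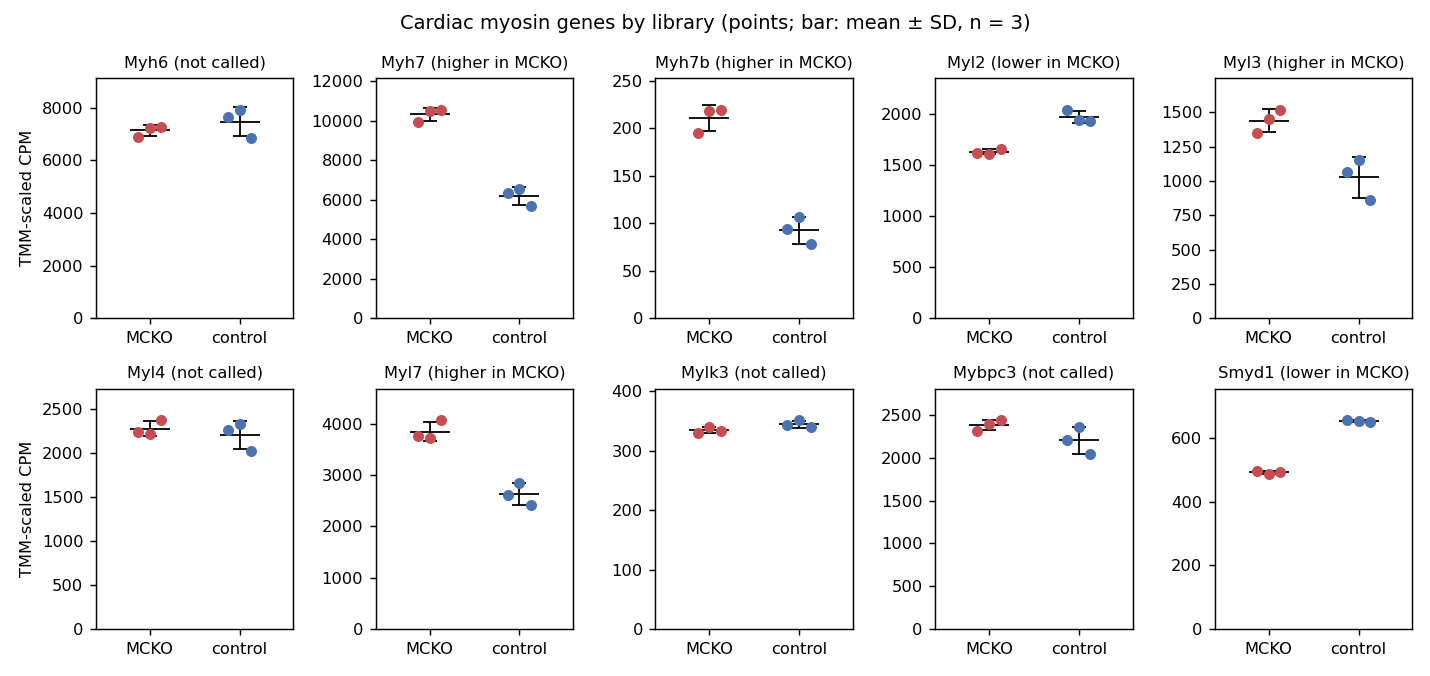
TMM-scaled CPM of the 10 cardiac myosin genes in each library, with MCKO left and control right, each axis starting at 0. Points are libraries and bars are means ± SD (n = 3); the groups are apart for Myh7, Myh7b, Myl2, Myl3, Myl7 and Smyd1 and overlap for Myh6, Myl4, Mylk3 and Mybpc3.

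Myh7, which encodes the beta heavy chain, rose in MCKO hearts. It had 9972, 10509 and 10569.9 TMM-scaled CPM in MCKO hearts, against 6366, 6559 and 5674 in control hearts. Every MCKO library lay above every control library. The means were 10350.2 ± 329 in MCKO and 6199.6 ± 465 in control hearts (SD, n = 3 each), a log2 fold change of 0.74 (SE 0.056, edgeR adjusted p = 4.9e-06). In GRCm38, Myh7 (ENSMUSG00000053093) spans chr14:54970684-54994626 on the minus strand.

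Myh6, which encodes the alpha heavy chain, did not pass the test. It had 6889.6, 7229.7 and 7273 TMM-scaled CPM in MCKO hearts, against 7625, 7920.5 and 6847 in control hearts. The MCKO values lie inside the range of the controls, whose lowest library is replicate 3. The log2 difference was -0.07 (SE 0.055, edgeR adjusted p = 0.334), and without control replicate 3 it was -0.12 with an adjusted p of 0.0189. Myh6 (ENSMUSG00000040752) spans chr14:54941921-54966927 on the same strand, 3756 bases downstream of Myh7.

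The groups also stood apart in the balance between the alpha and beta genes. Scaled per kilobase of the union of exons, Myh7 made up 53.0, 53.2 and 53.2% of the summed level of Myh6 and Myh7 in MCKO hearts, against 39.5, 39.3 and 39.3% in control hearts. The spread within a group was far smaller than the gap, with 53.1 ± 0.061% in MCKO and 39.3 ± 0.11% in control hearts (SD, n = 3 each). The difference of 13.8 percentage points had a 2-sided exact permutation p of 0.1, the smallest that 3 against 3 libraries can give. Myh7 exceeded Myh6 in MCKO hearts and Myh6 exceeded Myh7 in control hearts also with the principal transcript as length, where Myh7 made up 58.7 ± 0.059% in MCKO and 44.9 ± 0.11% in control hearts. The pair is similar in sequence, and 29.1% of the 31-base windows of Myh6 transcripts also occur in Myh7 transcripts. The sources used here do not say how such reads were divided, so the level of each gene is less certain than that of their sum. The antisense RNA Mhrt of this locus was not analysed here, and whether counting used the strand is not stated.

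Promoter windows from RefSeq, 250 bases before to 50 bases after a start on GRCm38.p6, are shown for the 2 linked genes because they differed in response. Capitals mark CATTCC, a motif known for binding TEAD factors, TATAAA, and any GATAA, CArG box or MEF2 site, on either strand, so CATTCC on the opposite strand reads GGAATG.
Myh7 promoter, chr14:54994577-54994876, minus strand: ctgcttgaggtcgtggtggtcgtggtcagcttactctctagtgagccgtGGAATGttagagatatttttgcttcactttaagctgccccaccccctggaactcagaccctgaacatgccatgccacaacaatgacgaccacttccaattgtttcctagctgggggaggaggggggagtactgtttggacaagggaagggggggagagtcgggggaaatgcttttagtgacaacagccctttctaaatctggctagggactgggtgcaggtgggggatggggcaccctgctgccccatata
Myh6 promoter, chr14:54966558-54966857, minus strand: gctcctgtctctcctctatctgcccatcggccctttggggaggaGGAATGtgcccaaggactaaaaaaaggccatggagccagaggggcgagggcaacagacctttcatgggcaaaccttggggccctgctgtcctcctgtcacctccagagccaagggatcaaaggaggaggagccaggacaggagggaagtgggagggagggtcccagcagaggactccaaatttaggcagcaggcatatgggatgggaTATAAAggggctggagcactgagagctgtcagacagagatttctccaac
CATTCC was found at -201 to -196 in the Myh7 window and at -206 to -201 in the Myh6 window, counted from the RefSeq start. The RefSeq start of Myh7 is that of its GENCODE gene, and the RefSeq start of Myh6 lies 320 bases inside its GENCODE gene. TATAAA was found at 2 to 7 in the Myh6 window, just after the RefSeq start, and not in the window of Myh7. The Myh7 window ends in the letters catata, and bases beyond the windows were not searched. This difference between the genes therefore depends on where the windows end. Of all 32851 windows, 14.7% hold CATTCC and 13.6% hold TATAAA. A match describes letters in a window and is not a measured binding site.

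Myh7b, a slow-type heavy chain gene related to Myh7, was the least abundant heavy chain gene and had the largest fold change of the 10 genes under TMM scaling. It had 196, 218 and 219.7 TMM-scaled CPM in MCKO hearts, against 94.0, 106 and 78.0 in control hearts. All MCKO libraries were above all controls. The log2 difference was 1.19 (SE 0.11, edgeR adjusted p = 8.44e-05), or 2.28-fold. Myh7b (ENSMUSG00000074652) spans chr2:155611212-155634307 on the plus strand. Per kilobase of exon it had 31.8 ± 2.0 TMM-scaled CPM in MCKO and 14.0 ± 2.2 in control hearts, against 1201 ± 38.2 and 719.5 ± 54.0 for Myh7 in the same groups.

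Each heavy chain gene holds a microRNA gene on its own strand, at chr14:54949060-54949142 for Myh6, chr14:54975700-54975776 for Myh7 and chr2:155622880-155622958 for Myh7b. These small RNAs were not measured here. Their mature sequences from RefSeq (GRCm38.p6) are shown because they link the 3 genes as a family, with the seed, bases 2 to 8, in capitals.
mmu-miR-208a-3p, in Myh6: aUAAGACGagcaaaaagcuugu
mmu-miR-208b-3p, in Myh7: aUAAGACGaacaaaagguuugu
mmu-miR-499-5p, in Myh7b: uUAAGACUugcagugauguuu
The seeds of the Myh6 and Myh7 microRNAs are identical, UAAGACG, and that of the Myh7b microRNA is UAAGACU. Of the 3 hosts, Myh7 and Myh7b rose and Myh6 had a log2 fold change of -0.07.

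**Figure D2:**
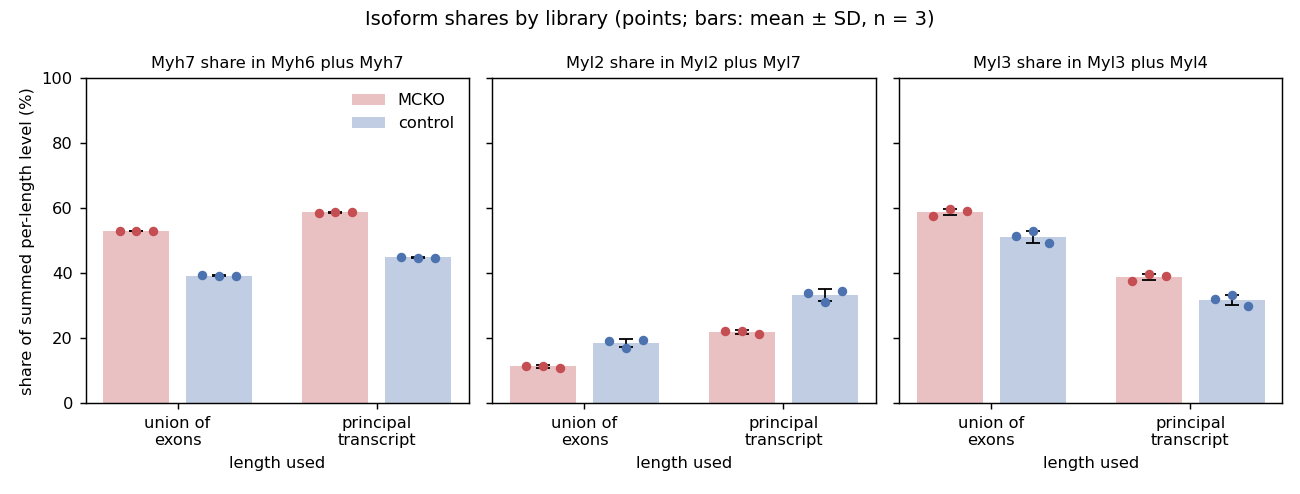
Share in percent of Myh7 in Myh6 plus Myh7, of Myl2 in Myl2 plus Myl7 and of Myl3 in Myl3 plus Myl4, from levels per kilobase of the union of exons or of the principal transcript, MCKO left of control. Points are libraries and bars are means ± SD (n = 3); the groups do not overlap for any share at either length, while the level of a share depends on the length used.

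The regulatory light chain genes moved in opposite directions. Myl7, the atrial form, had 3760.1, 3722 and 4069 TMM-scaled CPM in MCKO hearts, against 2616, 2856 and 2426 in control hearts. Its groups did not overlap, and the log2 difference was 0.55 (SE 0.062, edgeR adjusted p = 6.84e-05). Myl2, the ventricular form, had 1619, 1608 and 1655 TMM-scaled CPM in MCKO hearts, against 2037, 1940.4 and 1932 in control hearts. Each MCKO library was below each control library, and Myl2 fell by 0.28 on the log2 scale (SE 0.038, edgeR adjusted p = 0.000217). Per kilobase of exon, Myl2 made up 11.3 ± 0.34% of the pair in MCKO hearts and 18.5 ± 1.3% in control hearts (SD, n = 3 each, exact permutation p = 0.1). With the principal transcript as length, which is shorter for Myl2, the shares were 21.9 ± 0.58% in MCKO and 33.2 ± 1.9% in control hearts. Myl7 (ENSMUSG00000020469) spans chr11:5896637-5898782 on the minus strand, and Myl2 (ENSMUSG00000013936) chr5:122100951-122113472 on the plus strand.

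Of the essential light chain genes, the ventricular form rose and the atrial form was not called. Myl3, the ventricular and slow muscle form, had 1351, 1448 and 1519 TMM-scaled CPM in MCKO hearts, against 1062, 1152 and 862 in control hearts. The lowest MCKO library was above the highest control, and the log2 difference was 0.49 (SE 0.10, edgeR adjusted p = 0.00566). Myl4, the atrial and embryonic form, had 2239.5, 2215 and 2368 TMM-scaled CPM in MCKO hearts, against 2256, 2322 and 2017 in control hearts. The groups overlapped, with a log2 fold change of 0.05 (SE 0.056, edgeR adjusted p = 0.481). Per kilobase of exon, Myl3 made up 58.9 ± 1.0% of the pair in MCKO hearts and 51.3 ± 1.9% in control hearts (SD, n = 3 each, exact permutation p = 0.1). The gene model of Myl4 is long, and with the principal transcript as length the shares were 38.9 ± 1.0% in MCKO and 31.8 ± 1.6% in control hearts. Which of the pair is more abundant therefore depends on the length used. Myl3 (ENSMUSG00000059741) spans chr9:110741861-110769798 on the plus strand, and Myl4 (ENSMUSG00000061086) chr11:104550663-104595753 on the plus strand.

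Of the ventricular forms Myl3 rose and Myl2 fell, and of the atrial forms Myl7 rose and Myl4 had a log2 fold change of 0.05. Markers of the chambers other than myosins also went both ways, where 29.3% of all tested genes were called higher and 29.1% lower. Of 8 tested atrial markers 4 rose and 2 fell, with sums of 1862 to 1892 TMM-scaled CPM in MCKO and 1852 to 1927 in control hearts. Of 8 ventricular markers 4 rose and 2 fell, with sums of 944 to 967 TMM-scaled CPM in MCKO and 913 to 959 in control hearts. These sums mostly follow the most abundant genes of each list. For the atria these were Pam, at 850 in MCKO and 907 in control hearts, and Nppa, at 621 and 692. For the ventricles it was Lbh, at 510 in MCKO and 474 in control hearts. The part of chamber proportions in the light chain results was not tested.

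The windows of Myl7 and Myl3 are shown because both genes rose and both windows hold a CArG box, a motif known for binding SRF.
Myl7 promoter, chr11:5898733-5899032, minus strand: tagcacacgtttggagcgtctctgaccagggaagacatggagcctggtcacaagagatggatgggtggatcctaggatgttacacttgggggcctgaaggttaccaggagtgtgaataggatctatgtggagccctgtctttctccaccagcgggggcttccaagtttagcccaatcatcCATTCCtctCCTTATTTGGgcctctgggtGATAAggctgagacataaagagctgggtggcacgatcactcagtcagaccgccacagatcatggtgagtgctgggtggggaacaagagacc
Myl3 promoter, chr9:110763428-110763727, plus strand: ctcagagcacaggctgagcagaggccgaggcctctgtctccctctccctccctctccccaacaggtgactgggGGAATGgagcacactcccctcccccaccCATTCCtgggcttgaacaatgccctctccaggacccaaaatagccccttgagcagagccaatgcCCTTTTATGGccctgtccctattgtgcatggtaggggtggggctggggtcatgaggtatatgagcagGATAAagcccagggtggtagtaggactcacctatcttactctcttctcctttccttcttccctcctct
Capitals mark the same motifs as above. The CArG box lies at -61 to -52 in the Myl7 window and at -85 to -76 in the Myl3 window, and CATTCC at -70 to -65 in Myl7 and at -177 to -172 and -149 to -144 in Myl3. GATAA, a motif known for binding GATA factors, lies at -41 to -37 in Myl7 and at -18 to -14 in Myl3. The RefSeq start of Myl3 lies 21817 bases inside the GENCODE gene. Those of Smyd1 and Mylk3 lie 59952 and 5304 bases inside theirs, and that of Myl2 lies 7762 bases before its GENCODE gene. The counts that follow describe 1 window per gene, and other starts of these genes were not searched. Among the windows of the 10 genes, 2 hold a CArG box, against 1.63% of all 32851, and 4 hold CATTCC (Myh6, Myh7, Myl3 and Myl7), against 14.7%. GATAA was found in 5 of the 10 and in 25.4% of all windows, and a MEF2 site in 1 of the 10, Mybpc3, and in 3.19% of all. CANNTG was found in 8 of the 10 and in 72.3% of all windows, AGGTG in 7 and 51.9%, and AAGTG in 7 and 46.4%, and CANNTG can overlap either of the last. The genes with a CATTCC include Myh6, which was not called. Myh7 and Myh7b also rose, and their windows hold no CArG box. Srf, the gene of SRF, was not called (log2 fold change -0.04, SE 0.074, edgeR adjusted p = 0.689). The part of SRF in these results was not tested.

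Summed over isoforms, each class of myosin chain had MCKO libraries above all control libraries. The 3 heavy chain genes summed to 2293 ± 71.5 TMM-scaled CPM per kilobase of exon in MCKO hearts and 1843 ± 139 in control hearts (SD, n = 3 each). The regulatory light chains summed to 7360.1 ± 335 in MCKO and 5472 ± 366 in control hearts, and the essential light chains to 1194.5 ± 55.4 in MCKO and 976 ± 107 in control hearts, on the same scale. The ratios were 1.24, 1.34 and 1.22, and the 2-sided exact permutation p was 0.1 in each class, the smallest possible. Levels and ratios depend on the length used, while the groups stayed apart with each length tried. By principal transcript the ratio was 1.283 for heavy chains and 1.251 for regulatory light chains. Essential light chains then summed to 3947.6 ± 165 in MCKO and 3425.9 ± 328 in control hearts. Per kilobase of exon, their permutation p was 0.2 without MCKO replicate 3. In the same libraries the cardiomyocyte markers had a median log2 fold change of 0.23, with 7 of 13 called higher and 0 lower. Of all tested genes 29.3% were called higher and 29.1% lower.

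The kinase and the structural partner were not called. Mylk3, the cardiac light chain kinase that phosphorylates regulatory light chains, had 329.99, 341 and 333 TMM-scaled CPM in MCKO hearts, against 342, 351.0 and 340.3 in control hearts. Its log2 difference was -0.04 (SE 0.037, edgeR adjusted p = 0.35), and 1 MCKO library lay above the lowest control. Mybpc3, cardiac myosin-binding protein C of the thick filament, had 2319, 2399 and 2441 TMM-scaled CPM in MCKO hearts, against 2215, 2358 and 2049.6 in control hearts. The groups overlapped, with a log2 fold change of 0.11 (SE 0.053, edgeR adjusted p = 0.0968), and without control replicate 2 it was 0.16 with an adjusted p of 0.0125. Mylk3 (ENSMUSG00000031698) spans chr8:85324303-85386345 on the minus strand, and Mybpc3 (ENSMUSG00000002100) chr2:91118144-91136516 on the plus strand.

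Smyd1, a heart and skeletal muscle methyltransferase required for heart development in the mouse, fell. It had 497, 487 and 495 TMM-scaled CPM in MCKO hearts, against 657, 655 and 650.3 in control hearts. The libraries of a group were closer together than for the other members that were called, with SDs of 5.5 in MCKO and 3.3 in control hearts. Smyd1 fell by 0.41 on the log2 scale (SE 0.035, edgeR adjusted p = 1.01e-05). It spans chr6:71213940-71322233 on the minus strand (ENSMUSG00000055027).

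Control replicate 3 was the lowest control for all 10 genes on the TMM scale, and it also had the lowest summed cardiomyocyte markers, 23983 TMM-scaled CPM against 24341 and 25286 in the other controls. Without it the 6 calls stood, and Myh6 was called lower in addition. Markers of other cell types differed between the groups in the same libraries, where 29.3% of all tested genes were called higher and 29.1% lower. Of 9 primitive red cell markers 9 rose, with sums of 6624 to 7093 TMM-scaled CPM in MCKO and 3026 to 3344 in control hearts, and 5 of 5 tested epicardial markers fell, with sums of 67.3 to 68.0 in MCKO and 168 to 178 in control hearts. All 6 pharyngeal endoderm and epithelial markers rose, with sums of 259.98 to 285 TMM-scaled CPM in MCKO and 149 to 163 in control hearts. Of 9 endothelial and endocardial markers 7 rose and 2 fell, with sums of 1234 to 1259 in MCKO and 1088 to 1118 in control hearts. Of 6 smooth muscle markers 1 rose and 4 fell, with sums of 3512 to 3705 in MCKO and 4062 to 4520 in control hearts, and 5 of 5 tested liver bud and yolk sac markers fell, with sums of 0.515 to 0.902 in MCKO and 14.7 to 16.4 in control hearts. Their part in the myosin values was not tested.

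Levels were also set against other heart muscle genes rather than all genes. With size factors from the 13 cardiomyocyte markers, none of them a myosin gene, Myh7, Myh7b, Myl3 and Myl7 were still called higher, at 0.53, 0.98, 0.28 and 0.34 on the log2 scale. Myl2 and Smyd1 were lower at -0.49 and -0.62, and Myh6, Myl4 and Mylk3 were now called lower at -0.27, -0.16 and -0.25 (edgeR adjusted p = 0.000367, 0.0124 and 0.00043). Mybpc3 was at -0.10 and not called. With that scaling 17.6% of all tested genes were called higher and 46.5% lower, so 5 lower of 10 is close to its background. The 4 higher of 10 are a larger part than 17.6%, and whether so few genes differ from that share was not tested. That scaling moves the median of all tested genes to -0.21, and 27.5% of its calls were higher, against 50.2% with TMM scaling.

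**Figure D3:**
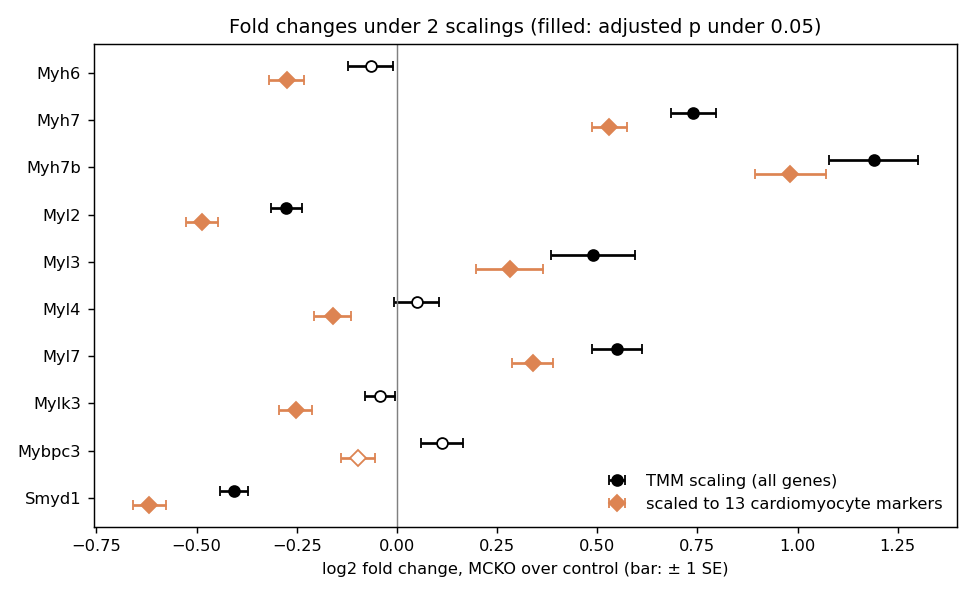
Log2 fold change of MCKO over control for each gene with TMM scaling (circles) and with scaling to 13 cardiomyocyte markers (diamonds); bars are ± 1 SE and filled symbols have an adjusted p under 0.05. The second scaling moves every gene to the left by about the same amount, so Myh7, Myh7b, Myl3 and Myl7 stay above 0 and Myl4 and Mybpc3 change sign.

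Over the 6 libraries, profiles were compared by the root mean square difference of centred log2 levels among 9696 genes with a mean of at least 10 TMM-scaled CPM. This distance includes the difference between the groups, so near genes have similar fold changes. The 3 nearest to Myh7 had log2 fold changes of 0.73 to 0.76, against 0.74 for Myh7. Within the 10 genes, Myl4 and Mybpc3 were 0.0423 apart, Myl2 and Smyd1 0.0701, and Myl3 and Myl7 0.0758, whereas Myh7 and Myh6 were 0.403 apart. The 3 nearest genes to Myh7 were Gtpbp2, Cmip and Tbkbp1, at 0.019 to 0.0253, and those nearest to Myl7 were Trim11, Trip6 and Rhoc, at 0.00958 to 0.0278. Ppip5k1, Wdr61 and Triap1 were nearest to Myl2, at 0.0139 to 0.0169. Zdhhc18, Rpusd4 and Tln1 were nearest to Myh6, at 0.00677 to 0.0153.

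Of 15 genes listed as thick filament partners and assembly, which include ubiquitin ligases and chaperones, 6 rose, 2 fell and 7 were not called. Their median log2 fold change was 0.25 against 0.00057 over all tested genes, of which 29.3% were called higher and 29.1% lower. Mybphl, a myosin-binding protein H-like gene, rose to 79.0 ± 1.0 TMM-scaled CPM in MCKO hearts, against 42.4 ± 2.6 in control hearts (log2 fold change 0.90, SE 0.054, edgeR adjusted p = 9.81e-07). Obsl1, a cytoskeletal linker gene, rose by 0.39 (SE 0.11). The muscle ubiquitin ligase genes Trim63 and Trim55 rose by 0.36 (SE 0.045) and 0.32 (SE 0.036). Unc45b, a chaperone that folds muscle myosin, fell by 0.22 (SE 0.063, edgeR adjusted p = 0.0146). The Obsl1 call was lost without MCKO replicate 2 or 3 (edgeR adjusted p = 0.0506 and 0.0579), and that of Unc45b without MCKO replicate 1 or 2 (0.0591 and 0.0574), which left 1 gene of the list called lower. Against cardiomyocyte markers, which include 1 gene of this list, 5 of the 15 were lower (46.5% of all tested genes were), and Obsl1 and Trim55 were not called (0.101 and 0.0676).

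Genes of light chain phosphorylation went both ways, with 6 of 17 called higher, 5 lower and 6 not called, and a median of 0.16, where 29.3% of all tested genes were called higher and 29.1% lower. Calm3 and Calm2, genes of the calcium sensor that activates light chain kinases, fell by 0.30 (SE 0.064, edgeR adjusted p = 0.00284) and 0.19 (SE 0.047, edgeR adjusted p = 0.00708). Rock2, a kinase that raises light chain phosphorylation, rose by 0.36 (SE 0.069), and Camk2d, the main cardiac calmodulin-dependent kinase, by 0.25 (SE 0.058). Ppp1r14b, a phosphatase inhibitor gene, fell by 0.34 (SE 0.068). Cdc42bpb, a Cdc42-binding kinase, and Ppp1r14c, another phosphatase inhibitor gene, each rose by 0.17 (SE 0.062 and 0.055), and against cardiomyocyte markers both changed sign. Without MCKO replicate 2, MCKO replicate 3 or control replicate 1, 3 genes of the list were called higher, and the Cdc42bpb and Ppp1r14c calls were among those lost (edgeR adjusted p = 0.133, 0.0637 and 0.0785 for Cdc42bpb, and 0.0838, 0.0701 and 0.052 for Ppp1r14c). With library totals only neither was called (edgeR adjusted p = 0.141 for Cdc42bpb and 0.103 for Ppp1r14c). Cdc42bpb also lost its call without MCKO replicate 1 (0.0669) or control replicate 3 (0.0572). Against cardiomyocyte markers 1 gene of the list was called higher (17.6% of all tested genes were), and Rock2 and Camk2d were not called (0.154 and 0.677).

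Of 22 transcription factors named for control of cardiac myosin genes, 9 rose, 3 fell and 10 were not called, with a median of 0.14. Of these 22, 6 are also among the chamber markers and 1 among the cardiomyocyte markers. Over all tested genes 29.3% were called higher and 29.1% lower. Tbx5, a T-box factor of atria and left ventricle, averaged 147 ± 3.6 TMM-scaled CPM in MCKO and 97.6 ± 2.1 in control hearts (log2 fold change 0.59, SE 0.041, edgeR adjusted p = 2.69e-06). Mef2a rose by 0.47 (SE 0.058) and Tead1, a factor that binds CATTCC, by 0.29 (SE 0.058). Gata6 rose by 0.21 (SE 0.047) and Gata4 by 0.12 (SE 0.036), and both changed sign against cardiomyocyte markers. The Gata4 call was also lost without MCKO replicate 2, MCKO replicate 3 or control replicate 1, with adjusted p from 0.0626 to 0.0806, and with library totals only (0.06 on the log2 scale, edgeR adjusted p = 0.211). Against cardiomyocyte markers 2 of the 22 were higher and 9 lower, where 17.6% of all tested genes were higher and 46.5% lower, and Tead1 was not called (0.356). Hand2, a helix-loop-helix factor of the right ventricle, fell by 0.71 (SE 0.064), Nr2f1, an orphan nuclear receptor, by 0.74 (SE 0.075) and Purb, a repressor of myosin genes, by 0.62 (SE 0.081).

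Thin filament genes, the actin side of the sarcomere, had 7 of 13 called higher, 2 lower and 4 not called, with a median of 0.18, where 29.3% of all tested genes were called higher and 29.1% lower. Actc1, cardiac actin, averaged 11537 ± 292 TMM-scaled CPM in MCKO and 9826 ± 465 in control hearts, and skeletal actin Acta1 1103 ± 82.1 in MCKO and 584 ± 97.5 in control hearts, a log2 fold change of 0.92 (SE 0.13, edgeR adjusted p = 0.000915). Smooth muscle actin Acta2 fell by 0.24 (SE 0.049). Tpm2 rose by 0.40 (SE 0.047), Tpm1 by 0.23 (SE 0.046) and Tnnt2 by 0.25 (SE 0.040). Lmod3, a filament nucleator, rose by 0.48 (SE 0.051), and Tmod1, a pointed-end cap, by 0.18 (SE 0.037), which changed sign against cardiomyocyte markers. The call of Actc1, Tpm1 and Tnnt2 was lost with that scaling (edgeR adjusted p = 0.656, 0.686 and 0.304), which called 3 genes of the list higher and 6 lower, against 17.6% and 46.5% of all tested genes. Of the thin filament list 5 genes, these 3 included, are themselves among the 13 cardiomyocyte markers. Leaving out a library moved the number called lower, to 1 without MCKO replicate 1, MCKO replicate 2 or control replicate 1, and to 4 without control replicate 3.

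Of 12 skeletal myosin genes, 5 passed the filter, 2 rose, 2 fell and 1 was not called, where 58.4% of all tested genes were called. Mylpf, the fast skeletal regulatory light chain, averaged 19.5 ± 0.57 TMM-scaled CPM in MCKO and 37.6 ± 1.4 in control hearts, and Mybpc1, the slow skeletal myosin-binding protein, 5.14 ± 0.48 in MCKO and 12.1 ± 0.20 in control hearts. Mybph rose by 1.41 (SE 0.15), and Mybpc2, the fast form, by 1.18 (SE 0.34), a call lost without MCKO replicate 3 (edgeR adjusted p = 0.0582) or with DESeq2 (adjusted p = 0.0535), each leaving 1 gene called higher. Mybpc2 did not pass the filter of at least 50 counts in 3 libraries. Of 10 nonmuscle and smooth muscle genes, 3 rose, 3 fell and 4 were not called, again beside 58.4% of all tested genes. Myh9, a nonmuscle heavy chain gene, averaged 416 ± 12.2 TMM-scaled CPM in MCKO and 355 ± 28.5 in control hearts, a call lost against cardiomyocyte markers (edgeR adjusted p = 0.771). Myl12a, a nonmuscle regulatory light chain gene, rose by 0.18 (SE 0.041), which changed sign against cardiomyocyte markers. Myl6b, an essential light chain gene, rose by 0.66 (SE 0.12), while Mylk, the smooth muscle light chain kinase gene, fell by 0.61 (SE 0.084) and Myh14 by 1.55 (SE 0.35). Myh14 was low, at 0.45 ± 0.13 TMM-scaled CPM in MCKO and 1.34 ± 0.50 in control hearts. Like Mybpc2, it did not pass the filter of at least 50 counts in 3 libraries. Without control replicate 3, 5 genes of this list were called lower, and against cardiomyocyte markers 1 was higher and 5 lower, beside 17.6% and 46.5% of all tested genes. With library totals only, 5 were likewise called lower.

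**Figure D4:**
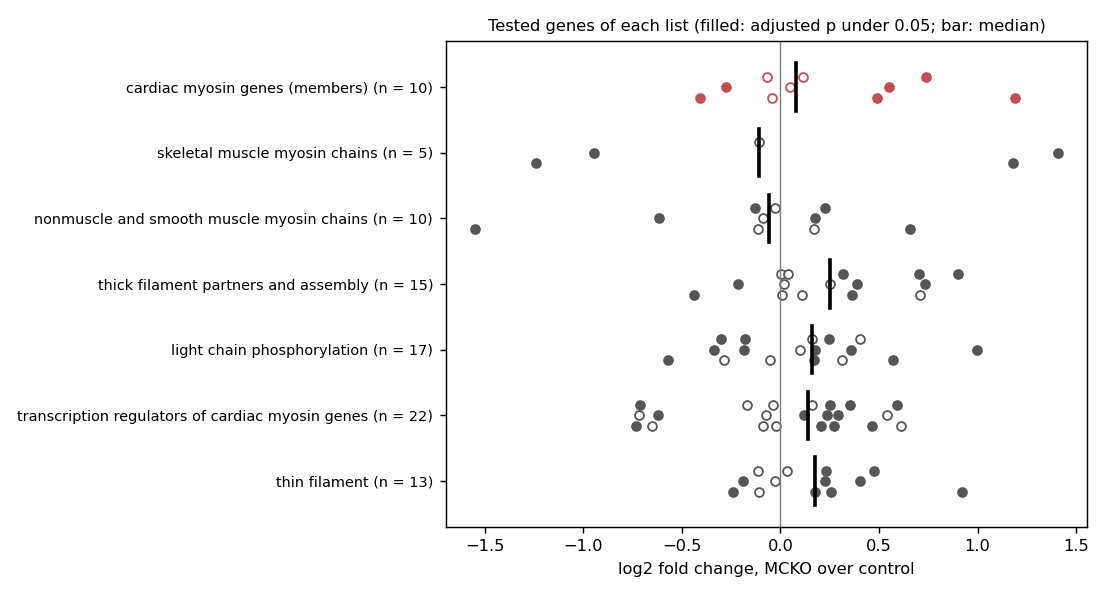
Log2 fold change of MCKO over control for every tested gene of the cardiac myosin group (top, red) and of 6 lists, where n is the number tested, filled points have an adjusted p under 0.05 and bars are medians. Points lie on both sides of 0 in every list, and the medians run from -0.11 to 0.25.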

How the data were processed

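RNA of 6 whole-heart libraries was analysed. The authors' table gives an estimated count for each Ensembl gene, in whole numbers and unscaled. The submitters' processing notes name kallisto and mm10 without a version; the sources used here do not give the transcript set or strand setting. Columns headed CKO were matched to MCKO titles by their remaining text. Symbols, lengths and coordinates came from GENCODE M21 (GRCm38), which matched 29857 of 30323 IDs.

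Counts were fitted in R 4.3.3 by edgeR 4.0.16 (filterByExpr, TMM, robust quasi-likelihood, 2-sided, Benjamini-Hochberg). The test was also run on simulated counts, with far fewer changed genes than were called in these data. That run therefore does not check the scaling between the groups. SEs were derived from the F statistic. At these depths 3 counts correspond to 0.0876 to 0.156 CPM. DESeq2 1.42.0, other scalings, filters, a replicate block and each library left out were alternatives. The labels do not tie libraries to litters, so p-values measure only how these samples vary, and that variation may be technical. Replicates differed beyond sampling noise (chi-square per degree of freedom 3.58 to 15.4), and each counted once.

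Members and lists were chosen with earlier results of these data known. The text names all 10 members, up to 4 called genes per list by smallest p, called list genes of at least 100 CPM, and the 3 nearest profiles to Myh6, Myh7, Myl2 and Myl7. Srf, which was not called, is named in addition because of the CArG box. The 4 noncoding genes listed for the myosin loci were not found by symbol in the count table, so they were not analysed here. Some list genes that meet the rule are not reported here.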

Additional observations from a re-analysis of the deposited data

How the results depend on the processing

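Over 13 alternative fits the 6 calls among the 10 genes kept their direction and stayed called, with Myh7 from 0.53 to 0.78, Myh7b from 0.98 to 1.30, Myl3 from 0.28 to 0.58, Myl7 from 0.34 to 0.61, Myl2 from -0.49 to -0.25 and Smyd1 from -0.62 to -0.40 on the log2 scale. Their adjusted p ranged up to 0.021, the value of Myl3. With size factors from cardiomyocyte markers 5 of the 10 genes were called lower, not 2, as that scaling sets each gene against heart muscle genes that were higher on balance. It turned Mybpc3 to -0.10, Myl4 to -0.16, Cdc42bpb to -0.036, Gata4 to -0.093, Gata6 to -0.0034, Myl12a to -0.032, Ppp1r14c to -0.037 and Tmod1 to -0.033. Myl4 was at -0.013 with library totals only, and between -0.0085 (without control replicate 3) and 0.087 (without control replicate 2) when a library was left out, and was called in none of these. With library totals only Mylk3 was called lower, at -0.10 (edgeR adjusted p = 0.0354). With each library omitted in turn there were 4 to 5 members called higher, 2 to 3 called lower and 7452 to 8695 genes called over the whole table, where 8587 were called. The difference in the Myh7 share was 13.7 to 13.8 percentage points in the same settings, that of Myl2 -7.9 to -6.7 and that of Myl3 6.6 to 8.5. With no length correction the share of Myl2 differed by -13.1 points and with the longest or principal transcript by -11.3. A replicate block gave 7765 calls over the table and the same 4 higher and 2 lower among the 10 genes; Gata4 was not called with it (edgeR adjusted p = 0.0738), and 1 thin filament gene was called lower. Same-numbered libraries share only a number, with correlations of deviations of -0.043, 0.036 and -0.2. The principal transcript lengths, the summed levels and the list counts per setting were chosen after seeing the data. Of the named list genes, 30 values lost their call and 6 changed sign across these settings.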
